A study of Mus musculus with 18 samples.

Results

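The ubiquitin-proteasome system was examined for N4-acetylcytidine (ac4C) by taking every mRNA whose symbol names a proteasome subunit or one of the families of ubiquitin enzymes and adaptors. The families were the Psm subunits, the Uba and Ube enzymes, the Herc, Hectd, Huwe and Nedd4 ligases, the Trim, Rnf and Ubr ligases, the Cul scaffolds, the Fbx, Klhl, Btbd and Asb receptors, the Usp, Uchl and Otud deubiquitinases and the Ubq shuttles. The choice rested on the symbol alone, and 155 of the 4922 mRNAs listed in any of the 6 acRIP-seq samples matched, with 782 of the 24703 listed peaks. A symbol is not proof of the activity: Usp6nl carries a deubiquitinase name but encodes a GTPase-activating protein, and Fbxo18 encodes a DNA helicase with an F-box.

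The samples were hippocampus of 3-month-old WT mice (n = 3) and of 3-month-old 5×FAD mice (n = 3), each with an ac4C-antibody (IP) library. The 5×FAD strain holds transgenes for mutant human APP695 (Swedish, Florida and London alleles) and mutant human PS1. Their Thy-1 promoter, of mouse origin, is active mainly in neurons. The background was C57BL/6J, and the WT mice carry neither transgene. No cross, deletion or drug is named for either group, and the samples are numbered replicates of each genotype whose labels do not name the animals, so p-values measure the spread between these samples. Each list gives, for a peak on a protein-coding exon, its fold enrichment (FE). The methods define FE as the acRIP signal minus the IgG signal, over the input signal. Whether IgG was subtracted in the listed values is not stated in the sources used here. Where an mRNA had several peaks, their FE was added up.

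Ubiquitin is activated by an E1 enzyme, passed to an E2 conjugating enzyme and placed on a substrate by an E3 ligase of the HECT, RING or related type. Cullin ligases find substrates through exchangeable receptors with an F-box, a BTB domain or a SOCS box, deubiquitinases remove ubiquitin, and the proteasome, a 20S core capped by 19S regulatory particles, degrades the tagged protein. In hippocampal neurons the system turns over synaptic proteins, and ubiquitin-tagged protein accumulates in Alzheimer's disease. ac4C is written on cytidine by Nat10, and on mRNA it has been tied to stability and translation.

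The lists held 3734 to 4558 peaks on 2575 to 2938 mRNAs a sample, and 83 to 93 of these mRNAs belonged to the ubiquitin-proteasome system. Peaks were on 7 of 10 neuronal marker mRNAs in WT and 5 of 10 in 5×FAD, and on 7 of 9 glial marker mRNAs in WT and 5 of 9 in 5×FAD, so mRNAs of both kinds of cell were listed in each genotype. The lists carry peaks and no read counts, so the depth behind a value is unknown, no mRNA level enters, and fewer cells of a type and less RNA per cell cannot be told apart. In the lists' own FDR column the lowest value of a member peak was 20.2%, and 24.7% ± 2.26 (SD, n = 3) of member peaks in WT and 30.4% ± 4.57 (SD, n = 3) in 5×FAD stood at 100%.

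Symbols of 523 annotated mouse protein-coding genes fit the families, and the 155 listed mRNAs came to 29.6% of that number, against 22.6% for 4922 listed mRNAs over all 21787 protein-coding genes. One of the 155 symbols, an older one, is not in that annotation. Coverage of the families was uneven. Peaks were listed on 10 of 15 HECT ligases, 15 of 37 E2 enzymes, 27 of 68 deubiquitinases and 11 of 28 regulatory-particle genes. They were listed on 2 of 19 genes of the 20S core and on 1 of 8 cullins. No peak of Ube3a, Usp14, Trim9, Rnf10, Fbxo2, Fbxo7, Cul3, Klhl17 or Psmb5 was in the lists analysed here.

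A genotype was taken to carry an mRNA if the mRNA had a listed peak in 2 or 3 of its samples. Of the 155, 56 carried peaks in WT alone ("AD absent"), 53 in 5×FAD alone ("AD unique"), 35 in both ("Overlay") and 11 reached 2 samples in neither. The names in quotes are those of the paper, whose classes also required the mRNA in RNA-seq. That filter was not applied here, so the sets differ from the paper's. Of the 144 that reached a genotype, 38.9% were WT alone, 36.8% 5×FAD alone and 24.3% both. The same shares over all 4493 such mRNAs were 40.4%, 34.6% and 24.9%, so the split of the ubiquitin-proteasome mRNAs was close to that of the lists as a whole. Of the single-genotype members, 42 of the 56 in WT alone were listed by each WT sample and never in 5×FAD, and 39 of the 53 in 5×FAD alone showed the converse, shares near the 72.4% and 73.9% of all listed mRNAs of those classes.

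**Figure D1:**
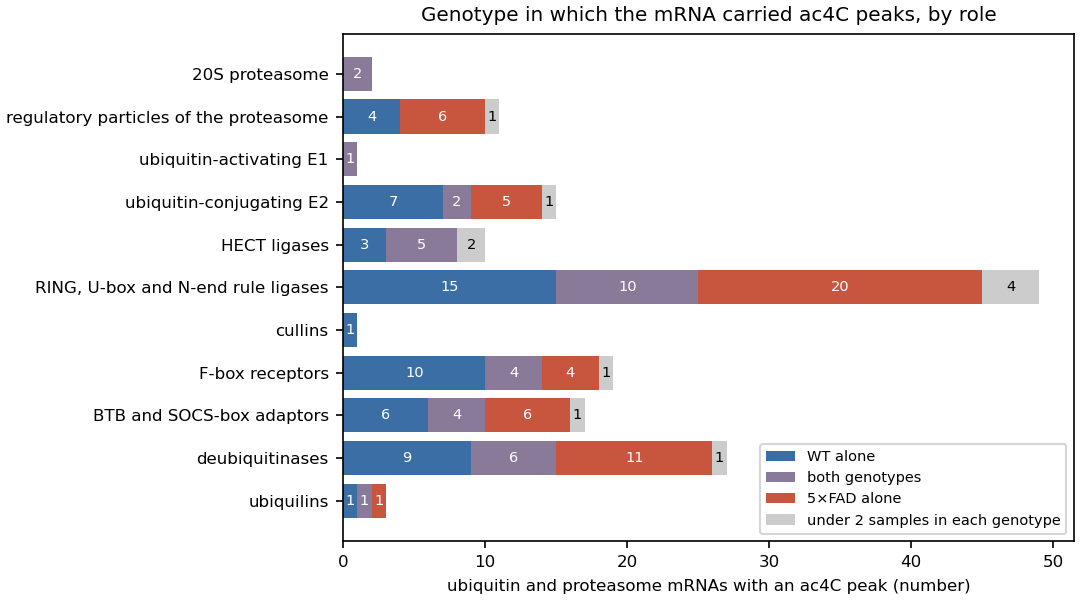
Number of mRNAs with ac4C peaks (x axis) in each role of the ubiquitin-proteasome system (y axis), coloured by the genotype in which at least 2 of 3 samples listed a peak. F-box receptors were 10 in WT alone against 4 in 5×FAD alone, and RING, U-box and N-end rule ligases 15 against 20. Of 10 HECT ligases none was listed in 5×FAD alone. BTB and SOCS-box adaptors were 6 against 6, E2 enzymes 7 against 5 and deubiquitinases 9 against 11. Over all mRNAs that reached a genotype 40.4% were WT alone and 34.6% 5×FAD alone. The numbers per role are small, and differences between roles were not tested.

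The 5×FAD-alone members carried weaker peaks than the WT-alone members. Their summed FE, averaged over the samples of that genotype, had a median of 17.2 (quartiles 9.30 and 37.9), against 31.6 (quartiles 10.4 and 120.0) for the WT-alone members. Over all listed mRNAs the corresponding medians were 37.0 and 35.6, with no such gap. A mean of at least 100 was reached by 7 of 53 members in 5×FAD alone and by 15 of 56 in WT alone, against 29.3% and 27.4% of all mRNAs of those classes. This is a description of the lists and was not tested.

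**Figure D2:**
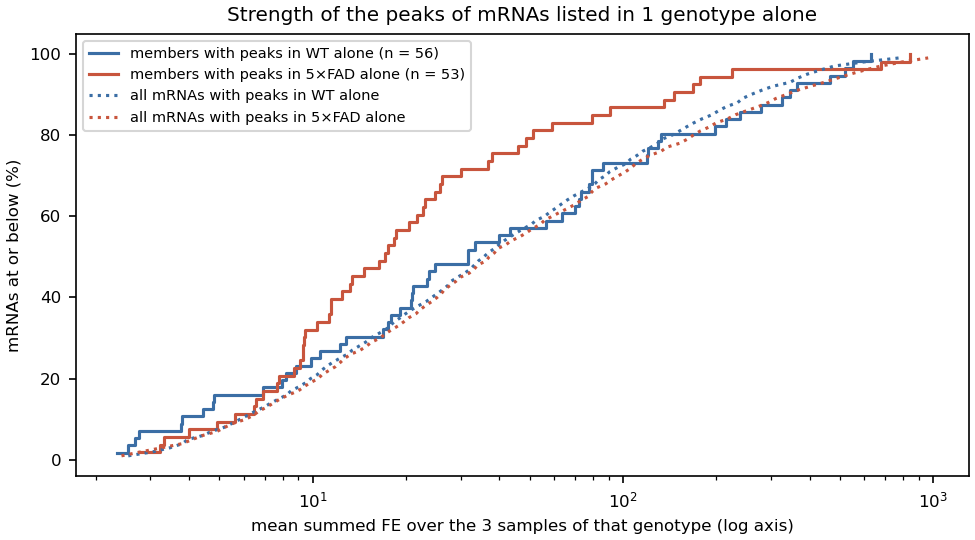
Cumulative percent of mRNAs (y axis) by mean summed FE over the 3 samples of the genotype that carried the peaks (x axis, log scale), for members (solid) and all mRNAs (dotted) listed in WT alone (blue) or 5×FAD alone (red). The red solid line runs above the other lines between about the first and the third quartile of its values (9.30 to 37.9), while both dotted lines lie together.

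The summed FE over all member peaks was 12481, 14877 and 13789 in the WT samples and 6019, 8719 and 8813 in the 5×FAD samples. The groups did not overlap, and neither did the sums over all listed peaks (357822 to 407035 in WT, 321687 to 325624 in 5×FAD). The ratio of the means, 5×FAD over WT, was 0.572 ± 0.126 (SD propagated from the samples, n = 3 and 3), against 0.829 over all listed peaks. The covered length was similar, 24667 ± 1425 bp in WT and 22857 ± 1344 bp in 5×FAD (SD, n = 3), and the median FE of a member peak was 21.4 ± 0.605 in WT and 14.8 ± 0.686 in 5×FAD (SD, n = 3), against 23.6 ± 0.584 and 21.5 ± 1.34 over all peaks. The sum rested on few mRNAs. Without Trim66 the ratio was 0.726, and without Trim66 and Trim68, each with the highest mean of any member in one genotype, it was 0.510. In 5×FAD replicate 1 Trim68 was at 271, below members such as Klhl30 (1033).

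Overlay mRNAs were compared by limma on log2(summed FE + 1), the +1 being the methods' pseudocount, fitted over all 1121 of them and called at an adjusted p (Benjamini-Hochberg) under 0.05 with at least a 2-fold change. Over all mRNAs tested 32.3% were called lower and 20.8% higher in 5×FAD. Of the 35 members 11 were called lower (31.4%) and 11 higher (31.4%), so the share of lower calls was near the background and that of higher calls above it by a few members. The median log2 fold change was -0.20 over the members (quartiles -2.23 and 1.94) and -0.47 over all 1121. With the log2 values of each sample centred on their median, which moved the median of all tested mRNAs up by 0.71, 8 members were called lower and 12 higher, and the share of lower calls over all called mRNAs went from 60.8% to 47.0%. The highest 5×FAD value was under the lowest WT value in 15 of the 35 members (39.4% of all tested mRNAs), and the reverse held in 12 (28.5% of all tested).

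**Figure D3:**
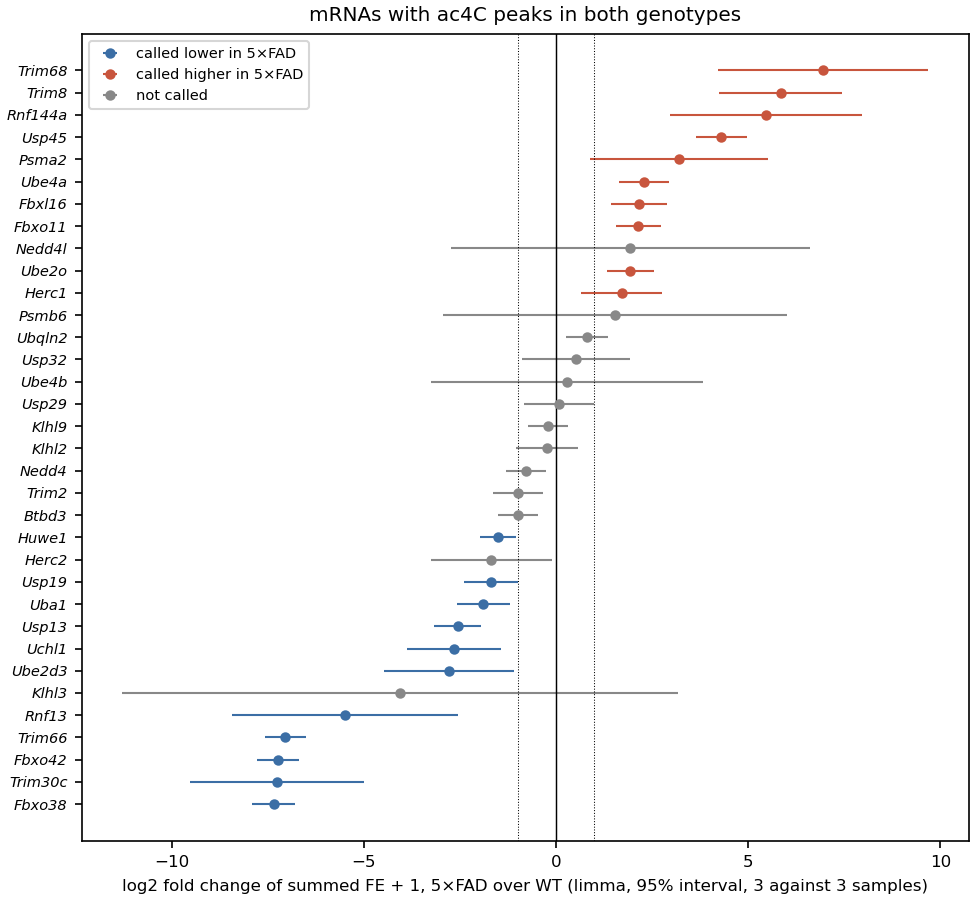
limma log2 fold change of summed FE + 1, 5×FAD over WT (x axis), with its 95% interval (bars), for 34 of the 35 members with peaks in both genotypes (y axis). Blue and red points are members called lower or higher, grey points are not called, and dotted lines mark a 2-fold change. Fbxo38, Trim30c, Fbxo42 and Trim66 lie between -7.34 and -7.04, and the widest interval, that of Klhl3, belongs to an mRNA with a sample listed at 0 in each genotype.

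Among the proteasome genes, the 20S core was represented by 2 mRNAs, both Overlay. Psma2, an α-ring subunit of the core, had a summed FE of 20.9, 5.94 and 23.2 in WT, against 47.8, 160 and 359 in 5×FAD. All 5×FAD samples were above all WT samples, although the 5×FAD values spread over several-fold. limma called it higher (log2 fold change 3.20 ± 0.91 SE, adjusted p = 0.031), and the call was lost without WT replicate 2 (adjusted p = 0.064), without 5×FAD replicate 2 (0.076), without 5×FAD replicate 3 (0.063) and with the replicate number as a block (0.060). The exon 4 peak of Psma2 had identical ends in all 6 samples (chr13:14619302-14619424 in mm10, plus strand, codons 84 to 125 of 234). In 5×FAD replicates 2 and 3 a further peak was listed in exon 5 (chr13:14620725-14620796, codons 125 to 149), which begins where exon 4 ends on the spliced mRNA. The 2 sequences are shown because this continuation accounts for part of the 5×FAD sum, and neither holds 4 CNN triplets in a row, the pattern examined further below.
Psma2 exon 4: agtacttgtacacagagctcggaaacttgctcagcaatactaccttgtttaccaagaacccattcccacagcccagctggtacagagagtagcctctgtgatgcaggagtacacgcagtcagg
Psma2 exon 5: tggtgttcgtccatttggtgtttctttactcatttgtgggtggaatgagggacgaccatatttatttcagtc
On the exon 4 peak alone the FE was 20.9, 5.94 and 23.2 in WT, against 47.8, 71.4 and 125 in 5×FAD, and the genotypes remained apart. Psmb6, a catalytic β-subunit, was listed at 0, 6.06 and 6.99 in WT and at 32.6, 40.6 and 0 in 5×FAD, from different exons, and was not called (adjusted p = 0.50, with the samples at 0 entered as 0).

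No regulatory-particle mRNA was Overlay: 6 were listed in 5×FAD alone, 4 in WT alone and Psmd1 in a single WT sample. The 19S ATPase subunits fell on both sides. Psmc1 (8.82, 10.5 and 6.74), Psmc2 (6.13, 10.7 and 0) and Psmc4 (4.52, 5.66 and 9.51) were listed in 5×FAD alone, and Psmc3 in WT alone (7.10, 0 and 7.38), all at low FE. Of the non-ATPase subunits, Psmd11 and Psmd12 of the lid were listed in 5×FAD alone, Psmd11 at 39.8, 20.1 and 30.5 and Psmd12 at 16.8, 9.99 and 25.8. Psmd3, another lid subunit, was listed in WT alone at 66.6, 51.2 and 122, mostly from a peak of 17 bp in exon 3 (codons 174 to 179). Psmd2, a scaffold of the base, had 20.6, 17.9 and 15.2 in WT and a peak elsewhere in 1 5×FAD sample (5.91), Psmd10, an assembly chaperone, had 28.6, 24.1 and 18.5 in WT alone, and Psmf1, which encodes the PI31 regulator, had 30.6, 37.4 and 45.8 in 5×FAD alone.

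Uba1, the main ubiquitin-activating enzyme, was the only E1 listed. Its summed FE was 34.5, 32.1 and 26.7 in WT, against 5.43, 8.78 and 9.13 in 5×FAD, a called decrease (log2 fold change -1.89 ± 0.27 SE, adjusted p = 0.0024) with no overlap between the groups. The peaks of the genotypes lay apart. All 3 WT samples listed exon 23 (chrX:20681323-20681514, plus strand, codons 943 to 1006 of 1118). All 3 5×FAD samples listed the end of exon 14 (chrX:20672950-20672971 in 2 of them, codons 578 to 585) and the adjoining exon 15 (chrX:20675586-20675654, codons 586 to 608). The sequences are given because the fall in the sum compares 2 different places, and capitals mark runs of 4 or more CNN triplets (C followed by any 2 bases), the pattern taken up below.
Uba1 exon 23, WT: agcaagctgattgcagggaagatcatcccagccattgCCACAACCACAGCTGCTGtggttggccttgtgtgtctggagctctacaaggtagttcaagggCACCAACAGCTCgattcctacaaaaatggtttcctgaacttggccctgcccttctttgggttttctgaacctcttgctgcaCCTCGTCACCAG
Uba1 exon 14, 5×FAD: cttccggccctgggatgtcacg
Uba1 exon 15, 5×FAD: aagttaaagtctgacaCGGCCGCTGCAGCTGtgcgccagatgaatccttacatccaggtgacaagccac

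Of the 15 E2 mRNAs, 7 were listed in WT alone, 5 in 5×FAD alone and 2 in both. Ube2o, which acts as an E2 and E3 in one chain, had 8.62, 7.73 and 5.95 in WT and 35.1, 32.3 and 26.2 in 5×FAD, with no overlap and a called increase (log2 fold change 1.93 ± 0.24 SE, adjusted p = 0.0013). Its exon 15 peak had the same ends in all 6 samples (chr11:116541087-116541223, minus strand, codons 934 to 979 of 1288) and carried the difference by itself, at 8.62, 7.73 and 5.95 against 22.8, 32.3 and 26.2. It is shown as a place at which both genotypes were listed and the FE differed.
Ube2o exon 15: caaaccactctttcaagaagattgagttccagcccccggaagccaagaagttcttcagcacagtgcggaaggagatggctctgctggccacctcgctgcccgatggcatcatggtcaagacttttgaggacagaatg
Ube2d3, an E2 used by many RING ligases, had 18.4, 11.1 and 21.0 in WT and 2.39, 3.74 and 0 in 5×FAD. It was called lower with the sample at 0 entered as 0 (log2 fold change -2.77 ± 0.66 SE, adjusted p = 0.017), and was not with a pseudocount of 0.1 (0.082), with median centring (0.058) or with the replicate block (0.062). The strongest single-genotype E2 mRNAs were Ube2j1 and Ube2g2, both enzymes of endoplasmic-reticulum-associated degradation, in WT alone (429, 384 and 223, and 187, 235 and 172), and Ube2q1 in 5×FAD alone (149, 173 and 185). Ube2k, which extends ubiquitin chains, was listed at 130, 120 and 112 in WT alone, from the 3′ untranslated region.

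Of the 10 HECT ligase mRNAs 5 were Overlay, 3 were listed in WT alone and 2 in a single sample. Huwe1, a giant ligase with many substrates including the N-Myc protein, had the most peaks of any member, 35 over the 6 samples in 12 regions. Its summed FE was 713, 671 and 644 in WT, against 247, 222 and 243 in 5×FAD, with no overlap, and it was called lower (log2 fold change -1.51 ± 0.18 SE, adjusted p = 0.0013). The call was lost where the highest peak replaced the sum (-0.52, adjusted p = 0.053) and with median centring (-0.79, fold under 2). Of the 12 regions, 6 were listed in WT alone, 4 in 5×FAD alone, 1 in a single 5×FAD sample and 1 in both. The largest WT peaks were in exon 49 (codons 2237 to 2295 of 4378; 169, 181 and 176), at exon 72 (codons 3762 to 3795; 250, 270 and 254) and in exon 74 (codons 3829 to 3882; 218, 130 and 127). At exon 72, the region of both genotypes, 5×FAD had 0, 1.83 and 2.51. Most of the 5×FAD sum came from a peak of 202, 174 and 164 at chrX:151846588-151846892, which the lists assign to a 3′ untranslated region and which lay outside the exons of the RefSeq transcript used here.

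Herc1, a giant ligase of the endomembrane system, moved the other way, from 43.6, 22.9 and 64.9 in WT to 133, 129 and 141 in 5×FAD (log2 fold change 1.71 ± 0.41 SE, adjusted p = 0.018). The WT peaks were in exons 40 and 51 and the 5×FAD peaks in exons 13 and 76 of 78, with no base in common. Herc2, which acts in the DNA damage response, had 19.3, 29.6 and 79.7 in WT and 6.60, 10.7 and 16.2 in 5×FAD. The groups did not overlap but the change was not called (adjusted p = 0.070). Nedd4, a ligase of membrane receptors and channels, had 8.14, 10.3 and 7.99 in WT and 5.19, 4.33 and 4.50 in 5×FAD, with an adjusted p of 0.023 and a log2 fold change of -0.78 ± 0.20 SE, under the 2-fold threshold. Nedd4l, which controls epithelial sodium channels, spread over 3.02, 291 and 206 in WT and 357, 99.4 and 380 in 5×FAD, with groups that overlapped (adjusted p = 0.41). Herc4 (120, 122 and 117) was among the 3 listed in WT alone. Ube3b had a peak in 1 5×FAD sample (3.98).

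**Figure D4:**
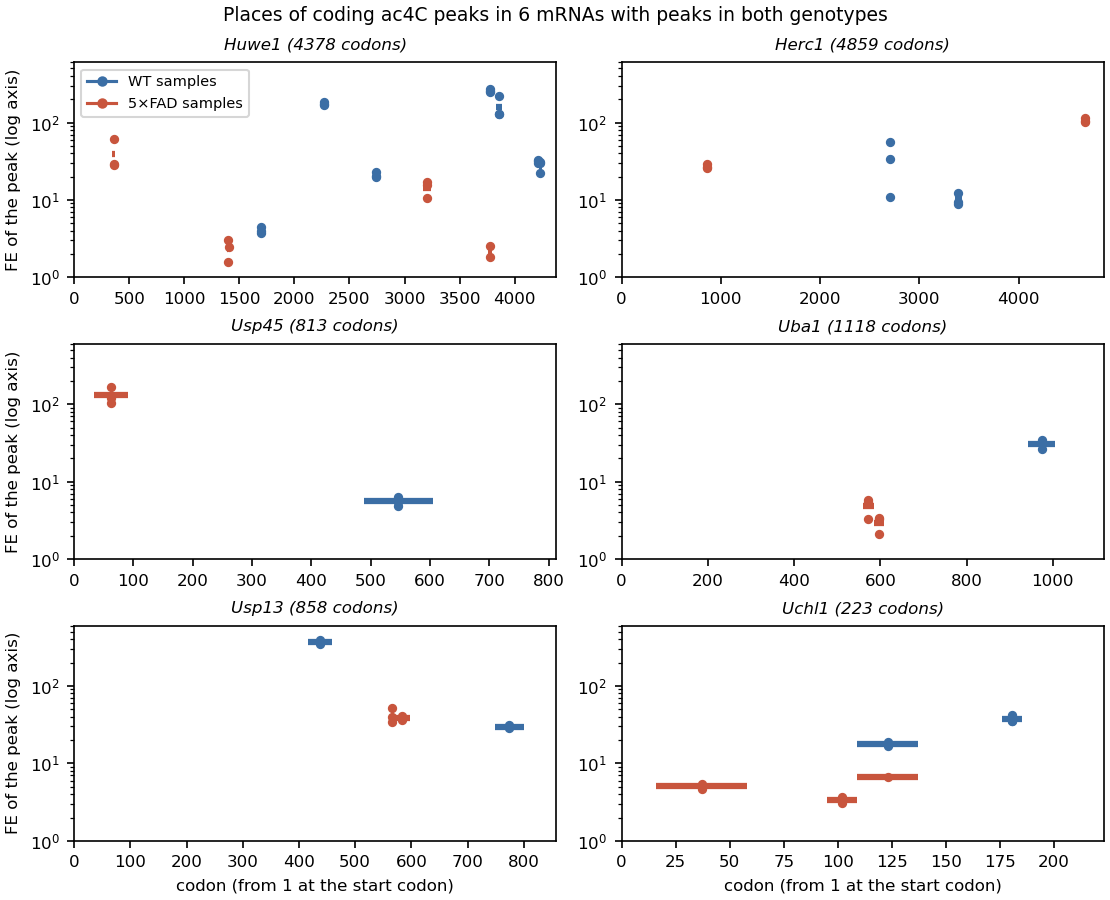
FE of each listed peak (y axis, log scale) at its place in codons along the coding sequence (x axis) for 6 Overlay mRNAs, with points for samples and bars for the extent of the region at the mean FE (blue WT, red 5×FAD). Peaks outside the coding sequence are not drawn, among them the Huwe1 peak of 164 to 202 in 5×FAD. WT and 5×FAD peaks share bases only near codon 3762 of Huwe1 and in exon 5 of Uchl1, where 1 5×FAD sample was listed.

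The RING, U-box and N-end rule ligases were the largest group, with 49 mRNAs: 15 in WT alone, 20 in 5×FAD alone, 10 in both and 4 in neither. The group was formed by symbol, which does not show that each member, Trim66 included, encodes a RING ligase. Of the 10 Overlay mRNAs 3 were called lower and 5 higher, against 32.3% and 20.8% of all Overlay mRNAs. The highest FE of any member in WT belonged to Trim66, a chromatin-binding Trim protein, at 2796, 3140 and 2876, against 18.2, 21.4 and 24.8 in 5×FAD. The difference was called (log2 fold change -7.04 ± 0.21 SE, adjusted p = 1.5e-05) and came from 1 region of the 3′ untranslated region (chr7:109449581-109449922, minus strand, exon 20 of 20). Trim68, which has been described as a ligase for the androgen receptor, was the opposite case: 10.8, 9.93 and 11.7 in WT, and 271, 3500 and 3232 in 5×FAD (log2 fold change 6.95 ± 1.08 SE, adjusted p = 0.0034). 5×FAD replicate 1 was more than 10-fold below the other two because it had no peak in exon 5, where replicates 2 and 3 had 3500 and 2941. That peak was 19 bp long (chr7:102679678-102679696, minus strand, codons 262 to 268 of 485), and the WT samples listed its first 7 bases alone, at 10.8, 9.93 and 11.7. The 19 bases are printed because the highest value of any member in 5×FAD rests on so short a stretch.
Trim68 exon 5: ggtattcaggaagccttga

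Trim30c had 570, 640 and 590 in WT and 7.46, 6.20 and 0 in 5×FAD and was called lower with the last sample entered as 0 (log2 fold change -7.25 ± 0.89 SE, adjusted p = 0.0013). It lies in a cluster of closely related Trim30 genes, and whether reads were split among copies was not tested. The listed place is exon 2 (chr7:104390290-104390531, minus strand, codons 19 to 99 of 513). The sequence is given as a coding region at which both genotypes were listed and the FE differed widely.
Trim30c exon 2: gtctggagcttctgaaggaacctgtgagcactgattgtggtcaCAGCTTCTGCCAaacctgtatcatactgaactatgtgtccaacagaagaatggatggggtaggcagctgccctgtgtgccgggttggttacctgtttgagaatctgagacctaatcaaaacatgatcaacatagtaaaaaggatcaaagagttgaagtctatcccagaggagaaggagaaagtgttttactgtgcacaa
Rnf13, a membrane-anchored ligase of endosomes and lysosomes, had 178, 367 and 260 in WT and 11.1, 0 and 14.6 in 5×FAD (log2 fold change -5.49 ± 1.15 SE, adjusted p = 0.011, with replicate 2 of 5×FAD entered as 0). With a pseudocount of 0.1 its adjusted p was 0.051.

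The higher calls among the RING and related ligases included Trim8, Rnf144a and Ube4a besides Trim68. Trim8, a regulator of cytokine signalling, had 0, 2.69 and 2.47 in WT and 114, 204 and 101 in 5×FAD (log2 fold change 5.84 ± 0.63 SE, adjusted p = 8.7e-04). The WT peak was in the 3′ untranslated region and the 5×FAD peaks in exons 2 and 6. Rnf144a, a RING-between-RING ligase, had 10.4, 6.33 and 0 in WT and 238, 208 and 142 in 5×FAD (log2 fold change 5.46 ± 0.98 SE, adjusted p = 0.0060), again from different places in the last exon. Both fits entered the WT sample without a peak as 0. Ube4a, a U-box enzyme that lengthens ubiquitin chains, had a summed FE of 8.33, 11.0 and 12.5 in WT, from exons 16 and 17, against 67.0, 51.6 and 47.3 in 5×FAD, from exon 12 (log2 fold change 2.28 ± 0.26 SE, adjusted p = 0.0010). The call thus compares sums over different places.

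Trim2, which ubiquitinates neurofilament light chain and is needed by axons, had 52.4, 37.7 and 62.9 in WT and 24.9, 25.2 and 23.5 in 5×FAD. Its log2 fold change of -0.996 ± 0.255 SE (adjusted p = 0.022) fell just short of 2-fold. Within the mRNA the places moved in opposite directions. The 3 regions in the 3′ untranslated region were listed in WT alone, whereas the exon 9 region (chr3:84172765-84172933, codons 585 to 641 of 761) was 6.76, 7.16 and 7.13 in WT, against 24.9, 25.2 and 20.4 in 5×FAD. Ube4b, another U-box enzyme, named after its values were seen as the remaining Overlay mRNA of this group not called, was listed at 0, 28.0 and 20.5 in WT and 13.3, 9.86 and 6.32 in 5×FAD and was not called.

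Among the ligases of a single genotype, Ubr4, an N-recognin with a coding sequence of 5180 codons, was listed at 367, 619 and 576 in WT and at 0 in 5×FAD, from 6 coding regions. The NHL-domain ligases Trim3 (21.7, 21.7 and 31.2) and Trim32 (52.1, 59.7 and 58.0) were likewise listed in WT alone. In 5×FAD alone, Rnf44 had 793, 668 and 581 beside a peak elsewhere of 309 in WT replicate 2. Most of its 5×FAD sum came from a peak of 627, 499 and 432 at chr13:54693729-54693861. The lists assign that peak to a 5′ untranslated region, and it lay outside the exons of the RefSeq transcript used here. Also in 5×FAD alone, Trim42 had 118, 140 and 272 and Rnf165, a ligase that promotes motor axon growth, 140, 153 and 146. Rnf2, the Polycomb ligase of histone H2A and likewise named after its values were seen, was listed at 10.7, 9.42 and 7.74 in 5×FAD, yet the single WT sample with a peak there had 727.

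Cul1, the scaffold of the SCF ligases, was the only cullin, at 76.8, 73.7 and 69.6 in WT and 0 in 5×FAD. Its F-box receptors numbered 19, with 10 in WT alone, 4 in 5×FAD alone, 4 in both and 1 in neither. The 4 Overlay receptors were all called, 2 lower and 2 higher (32.3% and 20.8% of all Overlay mRNAs). Fbxo38 had 573, 572 and 413 in WT and 2.14, 2.34 and 2.02 in 5×FAD (log2 fold change -7.34 ± 0.22 SE, adjusted p = 1.5e-05), and Fbxo42 had 653, 644 and 661 in WT and 4.21, 2.68 and 3.30 in 5×FAD (log2 fold change -7.23 ± 0.21 SE, adjusted p = 1.5e-05). Replicates of a genotype were close in both mRNAs. Fbxo38 has been described as the receptor for PD-1 and Fbxo42 as one for p53. In Fbxo42 the shared region was in the 3′ untranslated region and a start-codon region was listed in WT alone. Fbxo11, a receptor for the repressor BCL6, had a summed FE of 13.1, 10.4 and 13.1 in WT, against 46.8, 60.0 and 64.9 in 5×FAD (log2 fold change 2.14 ± 0.23 SE, adjusted p = 8.9e-04), with the WT peaks in exons 10 and 23 and the 5×FAD peaks in exons 15 and 17. Fbxl16, a brain-enriched receptor, had 9.64, 4.71 and 6.88 in WT, against 34.7, 34.9 and 32.8 in 5×FAD (log2 fold change 2.17 ± 0.29 SE, adjusted p = 0.0018). Its places differed too, apart from a stop-codon region of 12.9, 14.1 and 13.9 in 5×FAD that WT replicate 1 listed at 5.11. Fbxo31 (685, 878 and 92.7) and Fbxo25 (236, 269 and 329) were listed in WT alone. Fbxw7, the receptor for cyclin E, Notch and c-Myc, was listed in 5×FAD alone at 101, 79.7 and 91.5, at the stop codon.

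**Figure D5:**
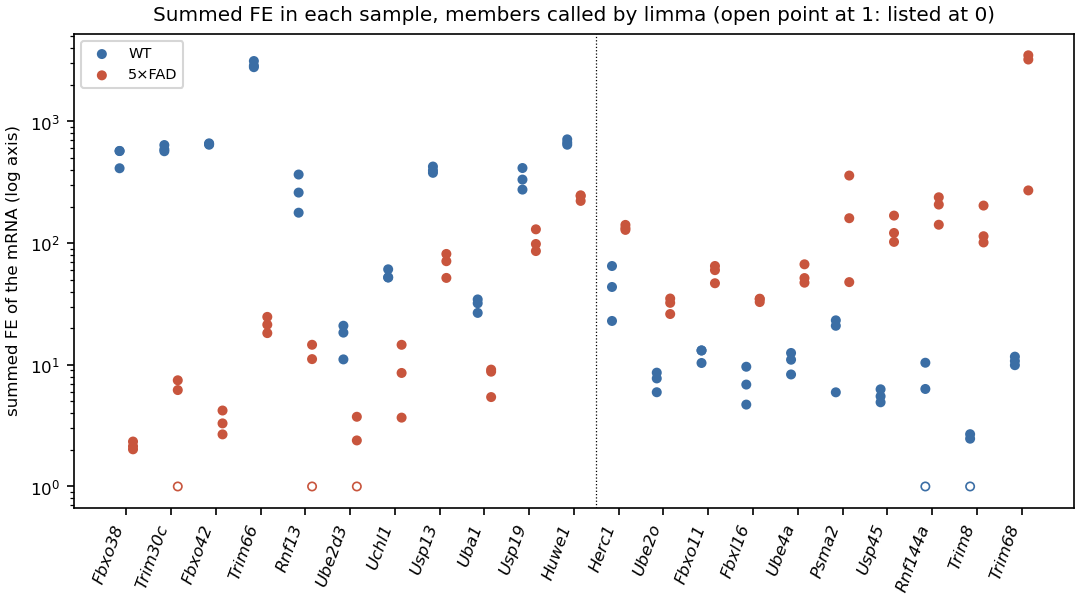
Summed FE of the mRNA (y axis, log scale) in each sample for 21 of the 22 members called by limma (x axis, lower calls left of the dotted line), with WT in blue and 5×FAD in red. Open points stand at 1 for samples listed at 0. In each of the 21 members the samples of one genotype all lie on one side of the other, which selection by a limma call favours. Over all tested mRNAs every 5×FAD sample was below every WT sample in 39.4% and above in 28.5%.

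BTB and SOCS-box adaptors, which bind Cul3 or Cul5, gave 17 mRNAs, 6 in WT alone, 6 in 5×FAD alone, 4 in both and 1 in neither. None of the 4 was called, against 32.3% called lower and 20.8% called higher of all Overlay mRNAs, and 4 mRNAs are too few to set the adaptors apart. Klhl3, the adaptor for WNK kinases, was the most uneven: 0, 461 and 718 in WT and 8.44, 0 and 6.65 in 5×FAD (adjusted p = 0.28 with 2 samples entered as 0). Klhl2, its close relative, had 47.3, 48.0 and 47.0 in WT and 50.1, 50.2 and 26.2 in 5×FAD, a difference within the spread (log2 fold change -0.23, 95% interval -1.03 to 0.58). The sum hid a change of place: exon 5 was listed in WT alone, exons 7 and 8 in 5×FAD alone, and exon 4 in both. Klhl9 had 5.58, 5.04 and 5.48 in WT and 5.52, 4.25 and 3.98 in 5×FAD, from 1 region of its only exon, and its groups overlapped. Btbd3, which orients dendrites in the mouse cortex, had 13.3, 13.3 and 10.5 against 6.25, 5.06 and 5.71, a log2 fold change of -0.998 ± 0.205 SE, just under 2-fold (adjusted p = 0.0099). In single genotypes, Klhl42 (595, 660 and 632) and Asb8 (462, 485 and 450) were high in WT, and Klhl30 (1033, 801 and 695) was the highest member in 5×FAD alone.

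Deubiquitinases numbered 27, with 9 in WT alone, 11 in 5×FAD alone, 6 in both and 1 in neither. Uchl1, one of the most abundant proteins of neurons, had 52.2, 52.4 and 61.0 in WT and 8.57, 3.68 and 14.6 in 5×FAD, and was called lower (log2 fold change -2.66 ± 0.48 SE, adjusted p = 0.0061). All 3 WT samples listed exon 5 (chr5:66682442-66682527, plus strand, codons 109 to 137 of 223) at 16.7, 17.6 and 18.8 and exon 8 (chr5:66684773-66684800, codons 176 to 185) at 35.5, 34.8 and 42.1. In 5×FAD all samples listed exon 4 (chr5:66679773-66679813, codons 95 to 109) at 3.12, 3.68 and 3.26, and exon 5 was listed in replicate 3 alone (6.67). A further region in exon 3 (chr5:66676893-66677072) was listed in 5×FAD replicates 1 and 3, at 5.45 and 4.67. The sequences show the 3 neighbouring places, of which exons 4 and 5 join on the mRNA.
Uchl1 exon 4, 5×FAD: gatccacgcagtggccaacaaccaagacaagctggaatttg
Uchl1 exon 5, WT and 1 5×FAD sample: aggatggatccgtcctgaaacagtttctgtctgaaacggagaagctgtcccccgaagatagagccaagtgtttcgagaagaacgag
Uchl1 exon 8, WT: atgggcgaatgccctttccagtgaacca

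Usp13, a deubiquitinase that has been linked to autophagy, had 379, 426 and 396 in WT and 51.8, 81.5 and 71.1 in 5×FAD (log2 fold change -2.56 ± 0.24 SE, adjusted p = 5.9e-04), with the WT peaks in exons 11 and 19 and the 5×FAD peaks in exons 13 and 14. Usp19, anchored in the endoplasmic reticulum, had 333, 415 and 276 in WT and 86.1, 130 and 98.4 in 5×FAD (log2 fold change -1.69 ± 0.27 SE, adjusted p = 0.0040). With median centring it fell by 0.98, under 2-fold. Its main peak was in exon 23 in WT and in exon 17 in 5×FAD, and exon 23 was also listed in 5×FAD replicate 2, at 3.91. Usp45, a partner of the Spindly and ERCC1 proteins, went from 5.51, 6.29 and 4.92 to 168, 102 and 121 (log2 fold change 4.30 ± 0.26 SE, adjusted p = 1.3e-04), with the 5×FAD peak in exon 3 (chr4:21781736-21781908, plus strand, codons 34 to 91 of 813) and the WT peak in exon 14. The exon 3 sequence is shown as the place of a called increase that no WT sample listed.
Usp45 exon 3, 5×FAD: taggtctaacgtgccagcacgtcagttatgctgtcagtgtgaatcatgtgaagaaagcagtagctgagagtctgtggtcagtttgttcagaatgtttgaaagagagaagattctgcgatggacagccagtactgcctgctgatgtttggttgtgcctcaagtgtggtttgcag
Usp29 (6.40, 5.33 and 7.94 against 4.64, 6.12 and 11.1), likewise named after its values were seen, and Usp32 (27.3, 34.5 and 65.0 against 45.4, 37.5 and 111) had overlapping groups and were not called.

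Of the deubiquitinases in WT alone, Usp36, a nucleolar enzyme, had 315, 390 and 390. Usp24, a large enzyme with 15 peaks over the 3 samples, had 215, 240 and 189. Usp46, which acts on glutamate receptors, had 70.5, 77.3 and 69.5, and Usp9x, an enzyme of neuronal development, 47.7, 35.7 and 36.4. Usp7, the deubiquitinase of Mdm2 and p53, was listed in 5×FAD alone (17.8, 23.4 and 23.7). None of these 5 had a peak in any sample of the other genotype.

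The ubiquilins, which carry ubiquitinated proteins to the proteasome, divided among all classes. Ubqln2 was Overlay at 12.6, 13.4 and 14.7 in WT and 29.8, 22.7 and 21.9 in 5×FAD, with no overlap, and its log2 fold change of 0.81 ± 0.21 SE (adjusted p = 0.024) was under 2-fold. A region of its only exon (codons 71 to 387 of 638) carried 5.69, 6.20 and 6.11 in WT and the whole of the 5×FAD values, while a stop-codon region was listed in WT alone. Ubqln1 was listed at 154, 131 and 121 in 5×FAD alone and Ubqln4 at 0, 78.8 and 131 in WT alone.

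Position was less often shared than the mRNA. Merging peaks of the 6 lists with 1 bp or more in common gave 290 regions on the members. Of the 254 regions that reached 2 samples of a genotype, 16 (6.30%) were listed in both, against 6.26% over all 7941 such regions. These 16 regions lay on 16 of the 35 Overlay members (45.7%, against 39.2% of all Overlay mRNAs). The remaining Overlay members had no region that reached 2 samples in each genotype. The regions were those of Fbxo38, Fbxo42, Huwe1, Klhl2, Klhl3, Klhl9, Psma2, Rnf13, Trim2, Trim30c, Trim66, Trim68, Ube2d3, Ube2o, Ubqln2 and Usp32. Of the member regions listed in all 3 samples, 72 of 104 in WT and 64 of 95 in 5×FAD had identical ends to the base in the 3 lists (69.2% and 67.4%, against 65.3% and 64.4% over all regions). Of the 782 member peaks 69.2% ended on an annotated exon edge, and its part in the identical ends was not tested.

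The lists' annotation placed 59.0% ± 0.410 of member peaks in the coding sequence in WT and 53.8% ± 2.70 in 5×FAD (SD, n = 3), against 60.2% ± 0.225 and 58.3% ± 0.222 over all peaks. Start-codon peaks were 11.4% ± 1.41 of member peaks in WT and 6.14% ± 2.12 in 5×FAD. Stop-codon peaks were 10.5% ± 1.86 in WT and 16.4% ± 1.39 in 5×FAD, and peaks in the 3′ untranslated region were 13.2% ± 0.676 and 17.5% ± 1.13 (SD, n = 3). The direction of the last 3 was the same over all peaks, where the shares were 9.27% and 8.21%, 13.4% and 14.6%, and 12.7% and 14.6%. With 118 to 145 member peaks a sample these shares rest on few peaks each and were not tested.

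Some neighbouring exons carried peaks that met at the splice junction, as in Psma2, Uba1 and Uchl1. Over the 6 samples 132 of 782 member peaks (16.9%) met another peak of the same mRNA and sample end to end on the spliced transcript (both peaks of a pair counted), on 27 members, against 21.4% of all peaks. In 61 of the 174 cases in which a member had several peaks in a sample (35.1%, against 44.7% over all listed mRNAs), at least 2 of them joined in this way. The summed FE counts both pieces. Counting each such run once, with its higher FE, gave 12 lower and 11 higher calls: Nedd4 was then called lower (log2 fold change -1.26, adjusted p = 0.0033).

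The C content of the exonic bases was 25.2% ± 6.64 in 125 WT-alone regions, 25.4% ± 6.64 in 110 5×FAD-alone regions and 24.5% ± 5.99 in the 16 regions of both (SD over regions), against 26.4%, 26.0% and 26.5% over all regions of those classes. A run of 4 CNN triplets (C followed by any 2 bases), a pattern associated with ac4C, was looked for on the mRNA strand, overlapping matches counted, in regions of at least 12 bases. It was present in 61 of 123 WT-alone regions (49.6%), 53 of 108 5×FAD-alone regions (49.1%) and 5 of 16 regions of both (31.3%), against 49.2%, 48.5% and 58.5% over all regions. On the opposite strand it was present in 53.7%, 50.9% and 68.8% of the member regions, against 49.3%, 48.8% and 56.1% over all regions. Among the members its frequency was thus no higher on the strand of the mRNA, with only 16 regions of both. Over all regions it was higher on that strand only in the regions of both (58.5% against 56.1%).

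Ubiquitin-pathway genes outside these families were counted from a list of 174 names, of which 61 were listed: 25 in WT alone, 18 in 5×FAD alone, 14 in both and 4 in neither. Over all mRNAs that reached a genotype, the first 3 classes took 40.4%, 34.6% and 24.9%. Of the 14, 2 were called lower and 2 higher, against 32.3% and 20.8% of all Overlay mRNAs. Wwp1, a Nedd4-family ligase, had 296, 313 and 246 in WT and 139, 78.8 and 94.2 in 5×FAD (log2 fold change -1.48 ± 0.29 SE, adjusted p = 0.0079). Hgs, a ubiquitin-binding sorting protein of endosomes, had 141, 283 and 191 against 78.1, 101 and 106 (log2 fold change -1.06 ± 0.33 SE, adjusted p = 0.041). Sel1l, an adaptor of endoplasmic-reticulum-associated degradation, rose from 9.36, 9.86 and 13.0 to 107, 115 and 138 (log2 fold change 3.37 ± 0.23 SE, adjusted p = 1.8e-04). Crbn, a substrate receptor of a Cul4 ligase, rose from 10.9, 12.4 and 11.6 to 37.0, 43.6 and 42.3 (log2 fold change 1.73 ± 0.19 SE, adjusted p = 9.2e-04). The sorting receptor Sqstm1, which binds ubiquitinated cargo for autophagy, had overlapping groups at 35.7, 43.4 and 37.9 in WT and 81.9, 117 and 26.6 in 5×FAD.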

How the data were processed

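acRIP-seq peak lists of 6 IP samples (3 WT, 3 5×FAD hippocampus) were analysed, and the 12 input and IgG libraries were not analysed here. Per the submitters' processing notes and the methods, the authors trimmed reads with cutadapt 1.9.3, aligned them to mm10 with HISAT2 2.04, called peaks with MACS against input, kept those on protein-coding exons and removed those overlapping IgG peaks. The deposited values are the fold enrichment of each peak (a ratio), its peak score (−10 × log10 of p) and its FDR in percent, and the authors' lists carry no counts. The methods state a filter on the adjusted p, while the FDR column lies far above such a filter, and how they relate is not given in the sources used here.

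Members were all symbols fitting the family names, and members and lists were chosen with earlier results of these data known. The FE of an mRNA was summed over its peaks, a missing mRNA entered as 0, and limma 3.58.1 (R 4.3.3) was run on log2(FE + 1). The fit was also run on simulated, normally distributed log2 values. No sample was set to 0 there, so the simulation does not cover mRNAs with samples entered as 0. Named are called Overlay members (up to 10 each way), the 5 strongest present in all 3 samples of one genotype and none of the other, the strongest 4 of each role, preset neuronal or disease-related genes, members with a region of both genotypes, and the 5 with most peaks. Regions were placed on RefSeq GRCm38.p6 transcripts, with 735 of 782 member peaks wholly exonic. A few members, counted in the totals, are not reported here by name. Spreadsheet dates in place of names or values were decoded.

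Alternatives were peak strength, samples left out, pseudocount, scaling, summing, overlap and a replicate block.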

Additional observations from a re-analysis of the deposited data

How the results depend on the processing

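The direction and call of 16 of the 22 called members held under every alternative tried that could fit them, and the losses of Huwe1, Psma2, Rnf13, Ube2d3 and Usp19 are given with each gene. No called member changed direction. Some members that were not called passed both thresholds under some alternatives: Btbd3 without WT replicate 3 (-1.10), 5×FAD replicate 1 (-1.06) or 5×FAD replicate 3 (-1.004) and with a pseudocount of 0.1 (-1.11), Trim2 in 5 alternatives (-1.19 to -1.0075), Klhl3 (-7.11) and Herc2 (-2.11) without WT replicate 1, Herc2 with a peak in all 3 samples (-1.68), Nedd4 (-1.26) and Ubqln2 (1.58) with the highest peak, and Ubqln2 with median centring (1.53). The lower calls ranged from 10 to 14 and the higher calls from 8 to 11 with 1 sample left out. The labels do not say whether same-numbered samples share a litter or a batch. The deviations of same-numbered samples from their group means correlated at -0.0004, -0.0077 and -0.035. Samples of different number correlated at -0.035 to 0.038, so these values cannot decide whether the samples were paired. The fit with the replicate number as a block called 11 members lower and 10 higher, without Psma2 and Ube2d3 and with Herc2 (adjusted p = 0.027). The median log2 fold change of the 35 Overlay members was -0.20, and 0.51 over the same 35 with median centring. It was 0.45 over the 26 Overlay members with peaks of FE at least 5, and 0.41 over the 30 with a mean FE of at least 10. Over all tested mRNAs the median was -0.47, and 0.24, -0.38 and -0.59 in these settings. For the members it was 0.07 with the highest peak, and ranged from -0.53 to 0.19 with 1 sample left out. Regions of both genotypes numbered 10 both with FE at least 5 and with a peak in all 3 samples, against 16. The ratio of summed FE was 0.726 without Trim66, an alternative chosen after seeing the data, as were the counts without Trim68 and with adjoining peaks counted once. Members not called reversed their sign as follows: Btbd3 (0.18) and Trim2 (0.0076) with the highest peak, Klhl2 (0.49) and Klhl9 (0.51) with median centring, Ube4b (-0.21) with a pseudocount of 10, and Usp29 (-0.76) with FE at least 5. With 1 sample left out, Klhl2 ranged from -0.377 to 0.0777 (highest without 5×FAD replicate 3), Nedd4l from -0.041 to 3.05 and Ube4b from -1.26 to 0.544 (both lowest without WT replicate 1), and Usp29 from -0.24 to 0.31 (negative without WT replicate 2 or 5×FAD replicate 3). The cause was not tested. The depth of the libraries is unknown, so an mRNA without a listed peak was not detected by the peak calling and is not shown to lack ac4C.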
